A study of Mus musculus with 6 samples.

Results

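The keratins of airway epithelium and the transcription factor gene Trp63 were followed in the lungs of mice with an active or an inactive human SRY transgene. The genes were Krt4, Krt5, Krt7, Krt8, Krt14, Krt15, Krt17, Krt18, Krt19 and Trp63, and every row of the array table that carried one of these symbols was taken, whatever its value. They made up 10 of the 18138 gene symbols on the array, and each was read by 1 probe among 25697. Total RNA came from whole lungs of male FVB mice (FVB/N in the study's methods) at postnatal day 6 (P6), 3 labelled hSRY-OFF and 3 labelled hSRY-ON, and each mouse was hybridised to an Illumina MouseRef-8 array. In hSRY-ON mice a single-copy transgene drove FLAG-tagged human SRY and EGFP from the ubiquitous CAG promoter after a floxed DsRed2 gene had been deleted. Cre recombinase left in the oocyte by a Ddx4-Cre mother made that deletion, and the hSRY-ON mice of the arrays did not carry the Cre gene themselves. In hSRY-OFF mice the transgene was not recombined, although the study also uses littermates without the transgene as controls, so that the presence of the cassette in these 3 mice rests on the label. The study used 1 line with the SRY transgene, crossed with a Ddx4-Cre line to obtain hSRY-ON mice. The labels do not state the litters.

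Keratins are the intermediate filament proteins of epithelial cells, and a filament needs a type I partner (Krt14, Krt15, Krt17, Krt18, Krt19 here) paired with a type II partner (Krt4, Krt5, Krt7, Krt8). Simple epithelia, which include the alveolar cells and the columnar airway lining, use Krt8 and Krt18 with Krt7 and Krt19. Basal cells of stratified and pseudostratified epithelia use Krt5 with Krt14 or Krt15, and p63, the product of Trp63, is the transcription factor that maintains them. In the adult mouse these basal cells line the trachea and the main bronchi and are scarce in the small airways, whose lining is made of club and ciliated cells.

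In all, 5 of the 10 genes had higher signal in hSRY-ON lungs, and none had lower signal. Krt15 was 5.50-fold, Krt14 4.19-fold, Krt19 2.27-fold, Krt18 1.93-fold and Krt8 1.40-fold higher, while Krt7, at 1.34-fold, did not pass the test. Krt5, Krt17, Krt4 and Trp63 were not detected on any of the 6 arrays. The values are normalized log2 intensities, and a change is the hSRY-ON mean minus the hSRY-OFF mean, tested with limma at a Benjamini-Hochberg adjusted p of 0.05 over the 13841 probes detected on at least 3 arrays. Of those probes 26.9% passed in either direction, 13.6% as higher and 13.3% as lower in hSRY-ON, so that a call alone did not set a gene apart. Of the 6 detected keratins, 5 passed as higher and 0 as lower. The median change of the 6 was 1.07 on the log2 scale, against -0.035 over all tested probes. In each of the 6, all hSRY-ON values lay above all hSRY-OFF values, which also held for 22.4% of all tested probes.

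**Figure D1:**
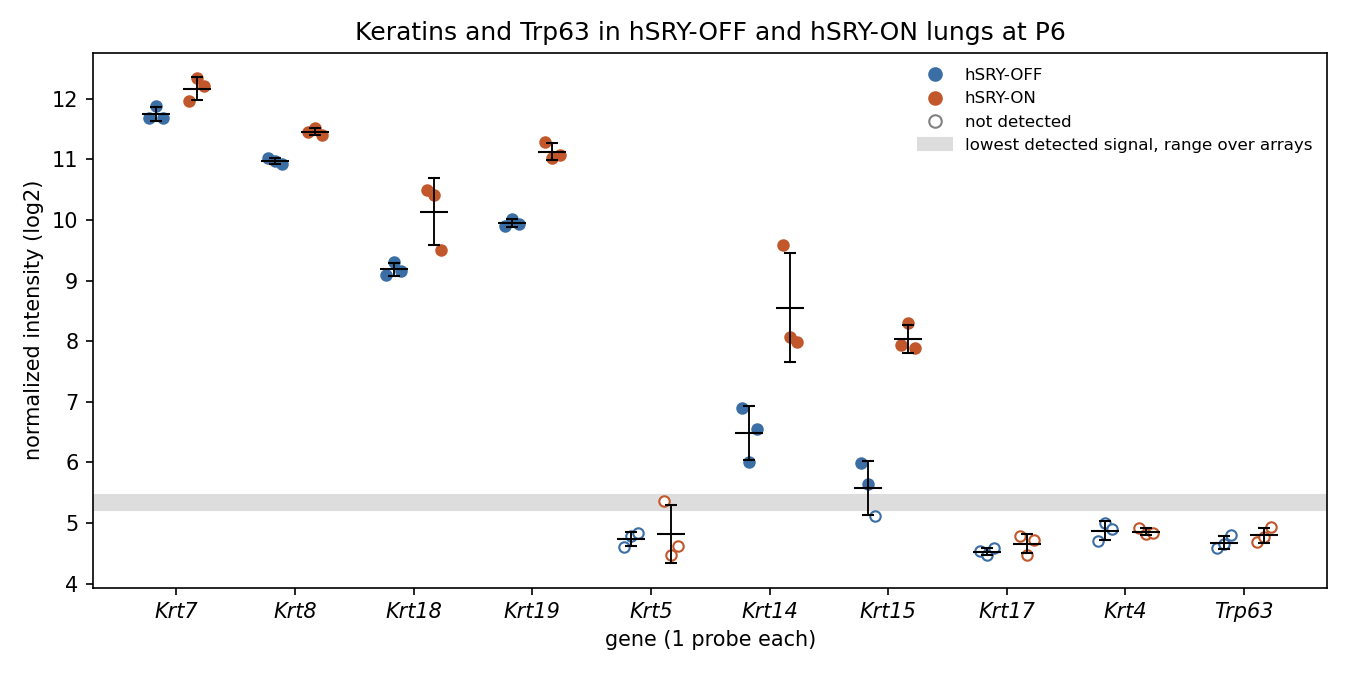
Normalized log2 intensity (y axis) of the 10 genes (x axis, 1 probe each) on each of the 6 arrays, with the mean and SD of the 3 arrays of each group; open circles mark arrays where the probe was not detected, and the grey band spans the lowest detected signal of the 6 arrays, 5.22 to 5.46. The 6 detected keratins have every hSRY-ON array above every hSRY-OFF array, whereas Krt5, Krt17, Krt4 and Trp63 have open circles on all arrays.

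The lungs carried the transcripts that mark the tissue. The signal of Sftpc, the surfactant protein of alveolar type II cells, averaged 14.28 in hSRY-OFF and 14.03 in hSRY-ON. Scgb1a1, the secretoglobin of club cells, averaged 14.94 and 14.95, and Ager, a marker of alveolar type I cells, 13.87 and 13.84. Between 13191 and 14134 probes were detected per array. Across all tested probes, arrays correlated at 0.991 to 0.993 among hSRY-OFF, at 0.972 to 0.980 among hSRY-ON and at 0.935 to 0.959 between the groups. With 3 arrays a group, precision was set by their number, and because nothing states that the mice came from separate litters, the p-values measure the spread between these 6 lungs.

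Among the simple keratins, Krt19 had the largest change. Krt19 encodes a type I keratin without the usual tail domain and is used by ducts and airway epithelium. Its signal was 9.89, 10.02 and 9.93 in the 3 hSRY-OFF lungs and 11.29, 11.02 and 11.08 in the 3 hSRY-ON lungs. All hSRY-ON lungs were far above all hSRY-OFF lungs, and the spread within each group was small, at 9.95 ± 0.06 (SD, n = 3) against 11.13 ± 0.14 (SD, n = 3). The change was 1.18 (SE 0.12, 95% confidence interval 0.89 to 1.47, limma adjusted p = 0.00162).

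Krt8 and Krt18 form the first keratin pair of the embryo and the main pair of simple epithelia. The signal of Krt8 was 11.02, 10.98 and 10.92 in hSRY-OFF and 11.45, 11.52 and 11.41 in hSRY-ON. Every hSRY-ON lung thus lay above every hSRY-OFF lung, with both groups tightly bunched, and the change was 0.48 (SE 0.11, 95% confidence interval 0.23 to 0.74, limma adjusted p = 0.0181). The signal of Krt18 was 9.10, 9.31 and 9.16 in hSRY-OFF and 10.49, 10.42 and 9.50 in hSRY-ON. The third hSRY-ON lung stood far below the other two and only just above the hSRY-OFF range, which raised the SD of the hSRY-ON group to 0.55, against 0.11 in hSRY-OFF (n = 3 each). Its change was 0.95 (SE 0.26, 95% confidence interval 0.33 to 1.57, limma adjusted p = 0.0372). With 1 array left out, the changes stayed between 0.45 and 0.51 for Krt8 and between 0.77 and 1.26 for Krt18. Neither call was kept in all of these fits. Without hSRY-OFF array 1, 2 or 3, the number of all tested probes that passed fell from 3728 to 1652, 1748 or 2235. The loss of the Krt8 call in those fits therefore does not single out any array. Krt8 no longer passed without the first, the second or the third hSRY-OFF array (adjusted p = 0.0654, 0.0727 and 0.0677), and Krt18 no longer passed without any of these (adjusted p = 0.116, 0.0896 and 0.0982) nor without the first or second hSRY-ON array (adjusted p = 0.0697 and 0.109).

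Krt7 encodes the type II keratin of glandular and ductal epithelia, with strong expression in lung. Its signal was 11.69, 11.87 and 11.68 in hSRY-OFF and 11.97, 12.33 and 12.20 in hSRY-ON. The lowest hSRY-ON value was close above the highest hSRY-OFF value. The change of 0.42 (SE 0.14, 95% confidence interval 0.10 to 0.75) did not pass the test after adjustment (limma adjusted p = 0.0612), and it passed without the first hSRY-ON array (adjusted p = 0.0269).

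The promoters of Krt8 and Krt18 are shown because these genes are neighbours whose products pair in 1 filament, and those of Krt14 and Krt5 because the former was detected and higher in hSRY-ON while its filament partner was not detected. Each run covers 250 bases before and 50 bases after the RefSeq start (GRCm38.p6), read 5′ to 3′ on the strand of the gene. RefSeq entries were used for 5 of the 10 genes, Krt7 being the fifth. Capitals mark matches on either strand. The motifs searched were the box TATAAA, the Sp1 motif GGGCGG, the AP-2 motif of GCC and GGC with any 3 bases between them, the AP-1 motif TGANTCA, the SRY and SOX core AACAAT, and the p53 family decamer. The Krt8 window is chr15:102004293-102004592 on the minus strand, Krt18 chr15:102027966-102028265 on the plus strand, Krt14 chr11:100205981-100206280 on the minus strand and Krt5 chr15:101712856-101713155 on the minus strand.
Krt8: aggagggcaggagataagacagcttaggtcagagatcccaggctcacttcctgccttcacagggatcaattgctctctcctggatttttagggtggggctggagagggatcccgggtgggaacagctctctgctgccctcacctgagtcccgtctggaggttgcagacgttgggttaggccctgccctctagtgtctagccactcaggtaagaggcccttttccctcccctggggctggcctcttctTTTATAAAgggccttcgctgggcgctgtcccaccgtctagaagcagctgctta
Krt18: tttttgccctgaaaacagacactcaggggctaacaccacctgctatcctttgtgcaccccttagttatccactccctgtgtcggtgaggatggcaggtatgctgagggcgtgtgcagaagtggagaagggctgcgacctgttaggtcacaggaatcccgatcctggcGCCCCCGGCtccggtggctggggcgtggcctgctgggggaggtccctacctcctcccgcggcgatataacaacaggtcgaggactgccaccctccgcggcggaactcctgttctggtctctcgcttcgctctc
Krt14: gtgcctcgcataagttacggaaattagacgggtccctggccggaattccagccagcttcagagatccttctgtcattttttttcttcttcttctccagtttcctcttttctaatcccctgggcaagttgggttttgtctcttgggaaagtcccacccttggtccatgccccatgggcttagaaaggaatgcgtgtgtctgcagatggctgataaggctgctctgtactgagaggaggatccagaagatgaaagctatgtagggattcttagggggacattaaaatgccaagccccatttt
Krt5: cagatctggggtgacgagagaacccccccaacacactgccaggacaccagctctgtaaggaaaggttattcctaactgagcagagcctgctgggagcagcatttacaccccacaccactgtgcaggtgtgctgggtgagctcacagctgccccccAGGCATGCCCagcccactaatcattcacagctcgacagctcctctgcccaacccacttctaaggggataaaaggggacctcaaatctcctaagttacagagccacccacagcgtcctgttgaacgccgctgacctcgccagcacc

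In these windows Krt8 held the letters TATAAA, matched on both strands by overlapping letters, and Krt18 had an AP-2 match. The Krt8 matches started at positions -3 and -1, at the annotated transcription start itself, and whether they act as a TATA box was not tested. The Krt5 window held 1 match to the p53 family decamer, the kind of sequence that p63 also binds, starting at position -95 from the transcription start. The Krt14 window held none of the 6 motifs, and that of Krt7 held 4 Sp1 and 2 AP-2 matches. The SRY and SOX core was found in none of the 5 windows. These letters are common, since among 32851 RefSeq promoters of the same length 13.6% held the TATA box, 35.7% Sp1, 16.6% AP-2, 7.81% AP-1, 10.7% the SRY and SOX core and 8.36% the p53 family decamer. A match describes the letters of a window only.

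Among the basal keratins, Krt15 had the largest change of all 10 genes. Krt15 encodes a type I keratin of basal cells in stratified epithelia and in the large airways. Its signal was 5.99, 5.64 and 5.11 in hSRY-OFF, where it was detected on 2 of the 3 arrays, and 7.93, 8.30 and 7.89 in hSRY-ON, where it was detected on all 3. The hSRY-ON lungs were alike, whereas the hSRY-OFF values reached down to the edge of detection (5.58 ± 0.44 against 8.04 ± 0.23, SD, n = 3 each). The change was 2.46 (SE 0.24, 95% confidence interval 1.90 to 3.02, limma adjusted p = 0.00140), and 0.499% of the tested probes had a change of at least this size in either direction.

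Krt14, the type I partner of Krt5 in basal cells, was detected on all 6 arrays. Its signal was 6.90, 6.003 and 6.55 in hSRY-OFF and 9.59, 8.07 and 7.99 in hSRY-ON. The first hSRY-ON lung stood more than 1 log2 unit above the other two, yet even the lowest hSRY-ON value was above the highest hSRY-OFF value. The change was 2.07 (SE 0.45, 95% confidence interval 1.01 to 3.12, limma adjusted p = 0.0163). Without the second hSRY-OFF array, the lowest of all, the change was 1.83 and no longer passed (adjusted p = 0.0636).

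The fold of the basal keratins depended on how background light was treated. In the deposited intensities, Krt15 was at 202.6, 179.4 and 186.1 in hSRY-OFF and at 357.8, 422.4 and 381.7 in hSRY-ON, where the median of an array lay between 177.1 and 204.0. Krt14 was at 262.4, 193.7 and 260.2 in hSRY-OFF and at 821.0, 379.7 and 401.7 in hSRY-ON. Without background correction the log2 changes were 1.10 for Krt15 and 1.19 for Krt14, close to the 1.08 of Krt19 under the same setting. The direction and the call of all 3 genes were kept, but the order of their sizes was not, since Krt14 then came before Krt15.

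**Figure D2:**
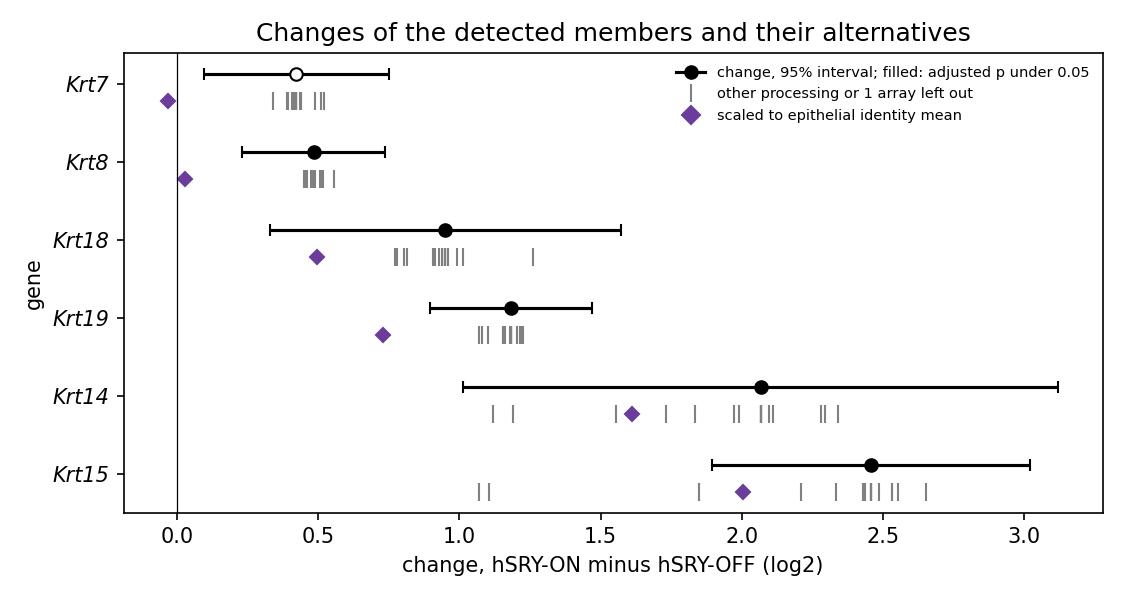
Change in log2 intensity, hSRY-ON minus hSRY-OFF (x axis), of the 6 detected keratins (y axis), with its 95% confidence interval, the values under other processing or with 1 array left out (ticks) and the value relative to the mean of 15 epithelial genes (diamonds). Krt15 ranged from 1.07 to 2.65 over all its alternatives and Krt19 from 0.73 to 1.23, and only the diamond of Krt7 lies below 0, at -0.032.

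The other 4 genes were below detection. Krt5, the type II keratin that defines basal cells, was at 4.60, 4.78 and 4.83 in hSRY-OFF and at 5.36, 4.46 and 4.62 in hSRY-ON, and its lowest detection p-value was 0.0639, on the first hSRY-ON array. Trp63 was at 4.58, 4.65 and 4.79 in hSRY-OFF and at 4.68, 4.77 and 4.93 in hSRY-ON, with detection p-values from 0.179 to 0.660. The groups overlapped for both genes, and no level can be given beyond that it lay under the detection limit of this array in whole lung. Krt17, a keratin of basal and injured epithelium, ranged from 4.47 to 4.58 in hSRY-OFF and from 4.48 to 4.78 in hSRY-ON. Krt4, the type II keratin of non-cornified stratified epithelium, ranged from 4.70 to 5.01 and from 4.81 to 4.92. When the detection filter was removed, the limma adjusted p of the 4 genes lay between 0.559 and 0.964. A difference in these genes was therefore not detectable, and the higher Krt14 and Krt15 signals came without a measurable signal of Krt5 or Trp63.

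The other members of the p53 family were read alongside. Trp53, whose protein is the stress-responsive tumour suppressor, fell from 10.92, 11.00 and 10.85 to 10.14, 10.21 and 10.26, a change of -0.72 (SE 0.11, limma adjusted p = 0.00553). Trp73, which encodes a p53 relative needed for ciliated cells, was detected on 1 array of each group and was not tested.

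The 37 other keratin genes on the array gave few signals. Only 6 of them passed the filter, of which 2 rose and 4 did not pass the test, and 24 were detected on no array. Krt79, a type II keratin known from the hair follicle and sebaceous duct, rose from 7.03, 7.05 and 6.94 to 9.22, 8.67 and 8.45, a change of 1.77 (SE 0.20, limma adjusted p = 0.00215). The groups were widely separated, and the first hSRY-ON lung was again the highest. Krt25, of the inner root sheath, changed by 0.53 (limma adjusted p = 0.0346) and was detected in 1 hSRY-OFF lung and in 3 hSRY-ON lungs. Its means, 5.14 and 5.67, were near the lowest detected signals. Krt25 met the filter through the hSRY-ON lungs, where it was higher, so its test and its place among the 2 that rose are no support for a change. The changes of Krt10, Krt23, Krt222 and Krt75 were -0.12, -0.11, 0.059 and 0.23, and none passed. Krt16, whose sequence is close to that of Krt14 and Krt17, was detected on no array. Probe sequences were not used here, so that cross-hybridisation among similar keratins was not tested.

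In the RefSeq gene order of GRCm38.p6, a stretch of the type I cluster on chromosome 11 runs Krt13, Krt15, Krt19, Krt9, Krt14, Krt16, Krt17. The cluster continues on both sides, with Krt36 before Krt13 and Krt42 after Krt17. In this stretch 3 genes, Krt15, Krt19 and Krt14, rose, while Krt16 and Krt17 beyond them were not detected. Krt13, the neighbour on the other side and the usual partner of Krt4, was detected in 0 hSRY-OFF lungs and 2 hSRY-ON lungs and was not tested. In the type II cluster on chromosome 15, the order Krt4, Krt79, Krt78, Krt8, Krt18 placed the undetected Krt4 next to Krt79. Krt8 and Krt18 are the end of that run, with Eif4b after them, and Krt18 is the type I gene that lies among the type II genes. Krt5, between Krt6a and Krt71, and Krt7, between Krt80 and Krt87, lie elsewhere in the same cluster.

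Pairs of keratins within an array showed unequal changes. The log2 ratio of Krt19 to Krt8 was higher in hSRY-ON by 0.70, and that of Krt19 to Krt7 by 0.76, with no overlap between the groups in either ratio. A 2-sided exact permutation test gave p = 0.1 for each, the smallest p that 3 against 3 arrays allow, and p = 0.186 after adjustment over the 13 relations computed. The ratio of Krt18 to its partner Krt8 differed by 0.47 and overlapped, because the third hSRY-ON lung lay within the hSRY-OFF range (exact permutation p = 0.3, adjusted p = 0.390). The ratio of Krt14 to Krt15 differed by -0.39, less than its spread (exact permutation p = 0.6, adjusted p = 0.709), and the first hSRY-ON lung was the one with more Krt14 relative to Krt15.

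**Figure D3:**
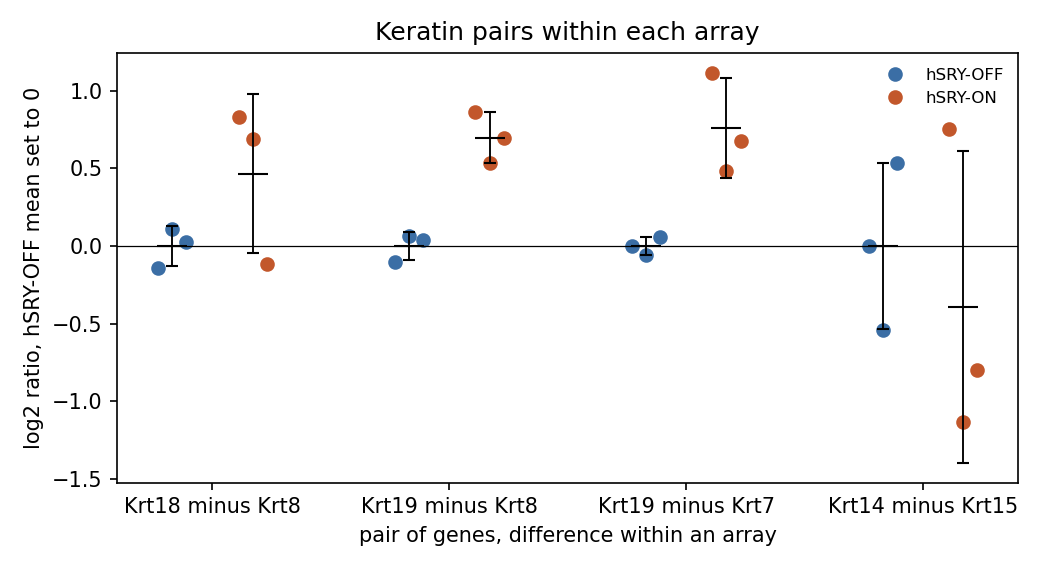
Difference in log2 signal between 2 keratins within each array (y axis, with the hSRY-OFF mean of each pair set to 0) for 4 pairs (x axis), with group means and SD, n = 3. The 3 hSRY-ON points of Krt19 minus Krt8 and of Krt19 minus Krt7 lie above all hSRY-OFF points, whereas the groups overlap in Krt18 minus Krt8 and in Krt14 minus Krt15.

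In whole lung RNA, a larger share of epithelial cells and more keratin RNA per epithelial cell cannot be told apart. The keratins were therefore also read against general epithelial genes. Of 18 such genes, 15 passed the filter, of which 8 rose, 1 fell and 6 did not pass the test, with a median change of 0.44 and a summed signal of 9124 to 9850 in hSRY-OFF and 13752 to 15533 in hSRY-ON. Cldn4, a tight junction claudin, rose by 2.33 (limma adjusted p = 0.00142), Esrp1, an epithelial splicing regulator listed on the array as Rbm35a, by 0.82 (limma adjusted p = 0.00350) and Cldn3, another claudin, by 0.84 (limma adjusted p = 0.00529). Cdh1, the E-cadherin gene, changed by 0.22 and did not pass (limma adjusted p = 0.350). Cdh16, a kidney-type cadherin and the gene that fell (-1.51, limma adjusted p = 0.0124), is named after its value was seen.

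The mean of the 15 epithelial genes was 8.63 ± 0.01 in hSRY-OFF and 9.08 ± 0.07 in hSRY-ON (SD, n = 3 each), a difference of 0.45 with no overlap (exact permutation p = 0.1, adjusted p = 0.186 over the 13 relations). With each array scaled to this mean, a reading chosen after the data were seen, the changes were 2.004 for Krt15, 1.61 for Krt14 and 0.73 for Krt19, and these 3 still passed (limma adjusted p = 0.00129, 0.0153 and 0.00375). Under this scaling 5.92% of the tested probes passed as higher, and all tested probes had a median change of -0.49. Krt18 changed by 0.49 (limma adjusted p = 0.105), Krt8 by 0.028 (limma adjusted p = 0.842) and Krt7 by -0.032 (limma adjusted p = 0.858), and none of these passed. The Krt8 change of 0.48 was thus near the 0.45 of this mean, while those of Krt15, Krt14 and Krt19 were larger. The mean joins genes whose changes ran from -1.51 (Cdh16) to 2.33 (Cldn4), so it is no uniform shift of epithelial genes. The cause of these differences was not tested.

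Basal cell and p63 target genes moved in part with Krt14 and Krt15. Of 20 listed genes, 18 were on the array and 12 passed the filter. Of these, 6 rose, 0 fell and 6 did not pass, with a median change of 0.83, and the summed signal of the list was 2772 to 2882 in hSRY-OFF and 4280 to 6674 in hSRY-ON. Much of that sum was the signal of Cdkn1a, a cell cycle inhibitor expressed in many cell types and named after its value was seen, which rose by 1.41 (limma adjusted p = 0.0156). Without it the sum was 1923 to 2101 in hSRY-OFF and 2829 to 3152 in hSRY-ON. Aqp3, a water and glycerol channel of basal cell membranes, was at 4.80, 4.98 and 5.12 in hSRY-OFF, not detected on any of these arrays, and at 6.86, 6.73 and 6.72 in hSRY-ON. It was at least 2.78-fold higher in hSRY-ON (limma adjusted p = 0.000617). Aqp3 met the detection filter only through the 3 hSRY-ON arrays, where it was high. Fermt1, also among the 6 and named after its value was seen, met the filter through those arrays too. Its signal exceeded detection in 3 hSRY-ON lungs but in only 1 hSRY-OFF lung. The tests of Aqp3 and Fermt1, and their places in the count and the median, are therefore no support for a change of the list. Itgb4, the hemidesmosome integrin that anchors keratin filaments to the basement membrane, rose from 8.40, 8.31 and 8.44 to 9.74, 9.56 and 9.53, a change of 1.23 (SE 0.12, limma adjusted p = 0.00135).

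Ngfr, the neurotrophin receptor used to sort basal cells, and Cdh3, the P-cadherin of basal cells, changed by -0.20 and -0.034 and did not pass. Itga6, the integrin partner of Itgb4, and Dapl1, Dsc3, Lgals7 and Perp were detected on no array. Itgb4 and Aqp3 are also expressed outside basal cells.

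Genes that tie keratin filaments to cell junctions were mixed. Of 12 desmosome and plakin genes, 8 passed the filter, of which 4 rose, 0 fell and 4 did not pass, with a median change of 0.52. Ppl, the plakin periplakin, rose by 0.86 (limma adjusted p = 0.00668) on its brighter probe, while the other probe, at 0.36, did not pass (limma adjusted p = 0.120). Pkp3, a desmosomal plakophilin, rose by 0.84 (limma adjusted p = 0.0298). Epn3, an endocytic adaptor and not itself a junction protein, rose by 1.10 (limma adjusted p = 0.00724). Dsp, which encodes desmoplakin, the main link between keratins and desmosomes, changed by 0.10 (limma adjusted p = 0.840). The summed signal of the list overlapped between the groups, at 8139 to 8954 in hSRY-OFF and 7897 to 8515 in hSRY-ON. Most of that sum was the signal of Plec, a plakin listed as Plec1 and named after its value was seen. It averaged 12.66 in hSRY-OFF and 12.35 in hSRY-ON and did not pass (change -0.31, limma adjusted p = 0.0882). The other 7 of the 8 genes had a positive change, so the overlap of the sums does not describe them.

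Some intermediate filament genes outside the keratin family fell. Of 13 such genes, 8 passed the filter, and 4 fell, 0 rose and 4 did not pass, with a median change of -0.59. Nes, the nestin of progenitor and vascular cells, fell from 11.12, 11.29 and 11.41 to 9.57, 9.14 and 9.81, a change of -1.76 (SE 0.19, limma adjusted p = 0.00187). Lmnb1, the nuclear lamin abundant in dividing cells, fell from 10.90, 10.70 and 10.67 to 8.76, 8.55 and 9.36, a change of -1.87 (limma adjusted p = 0.00235). Des, the desmin of muscle cells, changed by -0.72 (limma adjusted p = 0.00633). Vim, the vimentin of mesenchymal cells, changed by -0.46 and did not pass (limma adjusted p = 0.0582), and Lmna, Synm and Ina, at -0.095, 0.16 and 0.22, did not pass either. The value of Lmna is that of its brightest probe. Its other kept probes changed by -0.34 to -0.41, and none passed. The keratins that passed thus had positive changes in this fit, and the other filament genes that passed had negative ones. This holds only for genes that passed. Krt10 and Krt23, at -0.12 and -0.11, and Synm and Ina, at 0.16 and 0.22, had the other sign.

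**Figure D4:**
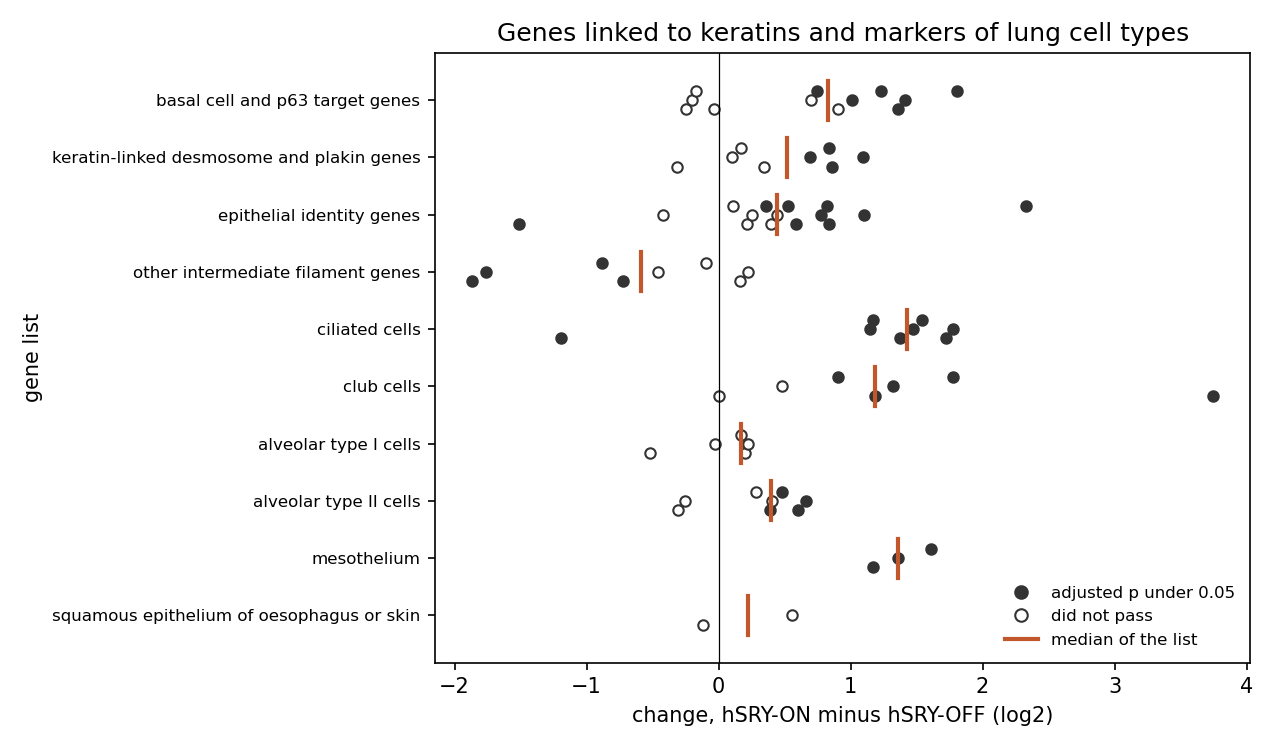
Change in log2 intensity, hSRY-ON minus hSRY-OFF (x axis), of each detected gene in 10 gene lists (y axis), with filled points for a limma adjusted p under 0.05 and a bar at the median of the list. The filled points of the other intermediate filament genes all lie below 0, and the medians of the ciliated, club and mesothelial markers lie above 1.

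Markers of several keratin-bearing cell types moved beside the keratins. Of 9 ciliated cell markers, 8 passed the filter, 7 rose and 1, Tuba1a, fell. Cdhr3, a cadherin-related protein of ciliated cells listed under the older symbol 1110049B09Rik, rose by 1.78, Dynlrb2, a dynein light chain, by 1.38 and Spag6, an axonemal protein, by 1.54 (limma adjusted p = 0.000888, 0.00105 and 0.00106). The median change was 1.43, and the summed signal was 9373 to 9964 in hSRY-OFF and 8636 to 11244 in hSRY-ON, with Dnahc5 detected on no array. Most of the hSRY-OFF sum was the signal of Tuba1a, which averaged 12.80 in hSRY-OFF and 11.61 in hSRY-ON (change -1.20, limma adjusted p = 0.0131). The overlap of the sums therefore does not describe the 7 markers that rose. Of 7 club cell markers all passed the filter, 5 rose and 2 did not pass, with a median of 1.18 and a summed signal of 65454 to 67800 against 86504 to 106099. Scgb3a1, a secretoglobin, rose by 3.75, Gabrp, a GABA receptor subunit, by 1.32 and Cyp2f2, a club cell cytochrome, by 1.18 (limma adjusted p = 0.000603, 0.00112 and 0.00296), whereas Scgb1a1 changed by 0.0065.

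The mesothelium, the simple epithelium that covers the lung and uses Krt7, Krt8, Krt18 and Krt19, was read with 7 markers, of which 5 were on the array and 3 were detected. Upk3b, a uroplakin of mesothelial cells, rose from 11.23, 11.35 and 11.29 to 12.69, 12.39 and 12.30 (change 1.17, limma adjusted p = 0.00239). Upk1b, a related tetraspanin, rose from 6.91, 6.91 and 7.05 to 9.55, 8.40 and 7.74 (change 1.61, limma adjusted p = 0.0289). Msln, which encodes mesothelin, rose from 8.86, 8.81 and 9.13 to 11.16, 10.02 and 9.70 (change 1.36, limma adjusted p = 0.0307). The first hSRY-ON lung was the highest in all 3, as it was in Krt14, Krt18, Krt19 and Krt79, but it was the lowest of the hSRY-ON lungs in Krt7 and not the highest in Krt8 or Krt15. Gpm6a and Lrrn4 were detected on no array, and the summed signal of the list was 3048 to 3262 in hSRY-OFF and 6147 to 9679 in hSRY-ON.

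The alveolar markers moved less. Of 7 alveolar type I genes 5 were detected and 0 passed the test, with a median of 0.17 and a summed signal of 44216 to 48138 against 46648 to 50866. The type I markers Gp38 (podoplanin), Emp2 and Cav1 changed by 0.23, 0.20 and -0.52, and Hopx and Rtkn2 were detected on no array. Of 8 alveolar type II genes 4 rose and 4 did not pass, with a median of 0.40 and a summed signal of 75422 to 76716 against 91371 to 96186. The smallest p-values were those of Sftpb, a surfactant protein gene, Abca3, a lipid transporter, and Napsa, a protease, with changes of 0.67, 0.60 and 0.48 (limma adjusted p = 0.00800, 0.00888 and 0.0222), and Sftpd also rose. The change of Abca3 is that of its brighter probe, while the dimmer one, at -0.066, did not pass (limma adjusted p = 0.908). The surfactant genes Sftpa1 and Sftpc changed by 0.41 and -0.25 and did not pass.

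Tissues that could be dissected along with the lung were read as well. Of 11 genes of oesophageal or skin epithelium 2 passed the filter and 0 passed the test. Ivl, the involucrin of the cornified envelope, changed by 0.56 (limma adjusted p = 0.316), and Krt1, Krt6a, Sprr1a, Sprr3 and Tgm3 were detected on no array. Krt13 and Krt78 were each detected in 0 hSRY-OFF lungs and 2 hSRY-ON lungs and were not tested. The 3 hSRY-ON values of Krt13, from 4.93 to 5.58, lay above the hSRY-OFF values, from 4.70 to 4.80, while those of Krt78 overlapped. The summed signal of the list was 791.7 to 878.3 in hSRY-OFF and 725.4 to 987.0 in hSRY-ON. Of 10 thymus genes 3 were detected, and the T cell genes Cd3e and Lck fell, with changes of -1.75 and -1.25 (limma adjusted p = 0.0112 and 0.0335), while Ptcra changed by -0.26 and did not pass. Foxn1, which defines the keratin-bearing thymic epithelium, was detected on no array, and the summed signal was 753.9 to 848.4 against 358.9 to 605.4. Of 8 cardiac genes 7 were detected, of which 1, Nppa, rose (5.55, limma adjusted p = 0.00611), Myl4 and Sln fell (-1.94 and -0.88, limma adjusted p = 0.00501 and 0.0425) and 4 did not pass, with a summed signal of 7185 to 9672 against 4470 to 9422. The part of ciliated, club, alveolar or mesothelial cells in the keratin changes was not tested.

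The probes with the profile closest to Krt15, the called member with the largest change, were those of Ppp1r14d, Dnahc2 and Ramp3. Likeness was the root mean square difference between profiles centred on their own mean over the 6 arrays, and it was 0.186, 0.229 and 0.258 on the log2 scale. Ppp1r14d encodes a regulatory subunit of protein phosphatase 1, Dnahc2 an axonemal dynein heavy chain and Ramp3 a modifier of calcitonin family receptors. The signal of Ppp1r14d was 5.82, 5.68 and 5.41 in hSRY-OFF and 8.16, 8.14 and 8.08 in hSRY-ON. For Krt7, the member with the highest mean signal, the closest were Mib1, a ubiquitin ligase of Notch ligands, Asl, the argininosuccinate lyase, and Nat6, an acetyltransferase gene, at 0.0238, 0.0245 and 0.0275. The neighbours of Krt7 lay nearer than those of Krt15, whose change was larger.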

How the data were processed

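Lung RNA of 3 hSRY-OFF and 3 hSRY-ON male mice was hybridised to Illumina MouseRef-8 arrays, and groups and replicate numbers were taken from the sample labels. The authors deposited, for each probe and array, an intensity on a linear scale without background correction or normalization, and a detection p-value, the share of negative controls brighter than the probe. The software that summarised the beads is not given in the sources used here. The study used TCC, a method for counts. As the values are intensities, limma 3.58.1 in R 4.3.3 was used. Intensities were processed with neqc (background from the detection p-values, offset 16, quantile normalization, log2), which understates changes of dim probes and removes overall shifts. The 13841 of 25697 probes whose detection p lay below 0.05 for 3 or more of the 6 arrays were kept. A linear model with moderated variances (lmFit, eBayes) and no covariates compared the groups, with Benjamini-Hochberg adjustment across every kept probe and calls at an adjusted p under 0.05. A probe not detected in 1 group has a bound, taken from the lowest detected signal.

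The genes, gene lists and rules were chosen with earlier results of these data known. Named are all 10 genes, the other keratins that passed the filter, Trp53, Trp73, the 3 genes of each list with the smallest p (1 of them is not reported here), the 3 probes nearest to 2 of the genes, and genes stated to be undetected or uncalled. Where a gene had several kept probes, the brightest stood for it in a list. Promoters, gene order and current symbols came from RefSeq (GRCm38.p6). The procedure was tested on simulated data, and no arrays held identical values. Other background corrections, normalizations, filters, variance models, thresholds, a replicate block and the removal of each array were tried.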

Additional observations from a re-analysis of the deposited data

How the results depend on the processing

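Counted over keratins and settings, 112 of 113 alternative changes of the 6 detected keratins were positive. The exception was Krt7, at -0.032 when scaled to the epithelial mean. The other filters, the variance trend, the stricter threshold and the replicate block left each tested change as it was. The sign could not differ under those settings. Of the 132 alternative values for the counts and list medians, 109 stayed within the spread or within 1.5 times the main count. Removal of the filter, the variance trend, the stricter threshold and the replicate block could not move the list medians. At an adjusted p under 0.01 the count of probes passing fell from 3728 to 1326 and that of the keratins from 5 to 2, Krt15 and Krt19. Leaving out 1 array gave 1652 to 4442 probes and 2 to 5 keratins, with the lowest values without the first (1652) and second (2) hSRY-OFF array. The median of the basal list was 0.39 without background correction, 0.35 with 1 median factor per array in addition, and 0.60 to 0.95 with 1 array left out. That of the desmosome list was 0.30 and 0.27 under these settings, 0.34 with detection required on all 6 arrays, 0.39 with probes of a gene averaged, and 0.45 to 0.59 with 1 array left out. That of the epithelial list was 0.31, 0.24 and 0.35 to 0.57. That of the other filament genes was -0.48 with median scaling, -0.49 with 1 median factor, -0.72 with detection on all 6 arrays and -0.72 at a detection p under 0.01, and -0.64 to -0.54 with 1 array left out. The cause of these shifts was not tested.

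Arrays with the same replicate number did not deviate together (correlations -0.107, 0.0957 and -0.0927). Arrays with different numbers gave -0.0885 to 0.162. With 3 arrays a group, each centred on its group mean, this check cannot settle whether the lungs were paired, and the labels do not state it. With the replicate block 2655 probes and 4 keratins passed, and Krt8 did not (adjusted p = 0.0559). Krt7 passed without background correction (adjusted p = 0.0259), with an offset of 50 (adjusted p = 0.0433) and with a variance trend (adjusted p = 0.0200). Krt18 did not pass without the filter (adjusted p = 0.0571). Krt19 passed in all 19 alternatives and Krt15 in all 18 that tested it. Each keratin rests on 1 probe, signals of Krt5, Krt17, Krt4 and Trp63 were not above background, and 3 lungs a group limit the precision.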
